A study of Homo sapiens with 15 samples.

Results

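The libraries described here are 3 of the B-lymphoblastic leukaemia line Reh with induced ETV6 carrying the R399C substitution (ETV6_R399C) and 3 with induced tagBFP, 6 of the 15 libraries of the series. They were chosen by their titles. Each holds RNA of a cell population transduced with a vector that switches on a transgene when doxycycline is present. Doxycycline was given to every population at 500 ng/ml over 48 h, the tagBFP controls included. The transgenes were ETV6 R399C with a V5 peptide tag and the blue fluorescent protein tagBFP, and 3 further libraries with induced V5-tagged wild-type ETV6 (ETV6_WT), grown and induced in the same way, entered the same statistical fit. The labels describe transduced populations and name no clone. They do not state whether replicates of a group came from separate cultures, so p-values measure only the spread between these libraries, which may be technical. The question set by the design is what the variant form changes in a cell that lacks the normal protein.

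ETV6 belongs to the ETS family and represses transcription. It oligomerises through its N-terminal pointed domain and binds DNA with GGAA at its core through its C-terminal ETS domain, and it recruits corepressors and histone deacetylases. R399C replaces an arginine of the ETS domain with a cysteine, and inherited ETS-domain substitutions of ETV6 are known in families with low platelet counts and a predisposition to leukaemia. In Reh one ETV6 allele is joined to RUNX1 and the other is deleted, so the induced protein is expressed in the presence of the fusion and without normal ETV6. A V5 tag and expression from a doxycycline vector also set the level and form of the protein apart from those of a germline carrier.

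The libraries held 22040338 to 27423208 reads with ETV6_R399C and 25897834 to 34046795 with tagBFP. Of 14 B-lymphoblast markers 13 were detected well enough to be tested, with a summed level of 7047 to 7124 CPM (read counts scaled to the size of the library) with tagBFP and 8592 to 8698 with ETV6_R399C, and 1 of them, VPREB1, was at 0 in all 9 libraries. Markers of T cells summed to 0.43 to 1.35 CPM, of erythroid cells to 1.73 to 2.31, of megakaryocytes to 3.45 to 5.25 and of endothelial and stromal cells to 13.0 to 16.0 over the same 6 libraries. Myeloid markers summed to 48.0 to 49.8 CPM with tagBFP and 83.4 to 88.4 with ETV6_R399C, most of it MPO, and 4 of the 8 were at 0 in all 9 libraries. The tagBFP library of replicate 3 stood apart from its group, since counts differed from those of the other tagBFP libraries with a chi-square over its degrees of freedom of 5.98 and 6.5, where other replicate pairs had 2.83 to 4.19. Its mean fragment length implied by the deposited tables was 334.8 bases, against 348.0 and 352.8 bases in the other tagBFP libraries and 340.7 to 341.3 bases with ETV6_R399C.

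ETV6 itself checked the labels. It stood at 6.08, 6.01 and 5.49 CPM in the tagBFP libraries and at 356, 384 and 379.6 CPM in the ETV6_R399C libraries. The groups did not overlap, and the log2 fold change was 5.99 ± 0.06 (SE, edgeR quasi-likelihood test, adjusted p = 4.21e-14). With ETV6_WT the level was 486 ± 18.1 CPM (SD, n = 3), above that of ETV6_R399C by 0.38 on the log2 scale (edgeR adjusted p = 2.48e-05). By the deposited TPM, which divide by transcript length, the log2 ratio of the group means was 7.15 for ETV6_R399C over tagBFP. The deposited tables give no count for the substituted base itself, and reads of the ETV6 part of fusion transcripts are counted to ETV6.

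Induction of ETV6_R399C moved a large part of the expressed genes by small amounts. Of 14242 genes tested, 5826 (40.9%) passed an adjusted p of 0.05, 2673 (18.8%) higher and 3153 (22.1%) lower than with tagBFP. The median size of these changes was 0.26 on the log2 scale, and 49.5% of them were under 1.2-fold. The lean to lower was not stable, since 2533 were higher and 2332 lower without ETV6_R399C replicate 1. Of the changes of at least 2-fold, 222 (1.56%) were higher and 79 (0.555%) lower. The groups did not overlap in 50.8% of tested genes. When each gene was adjusted for the length of its transcripts in each library, 3427 genes passed, 1584 higher and 1843 lower, and 263 of them changed at least 2-fold. Without the tagBFP library that stood apart, 5187 genes passed and 284 of them changed at least 2-fold.

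**Figure D1:**
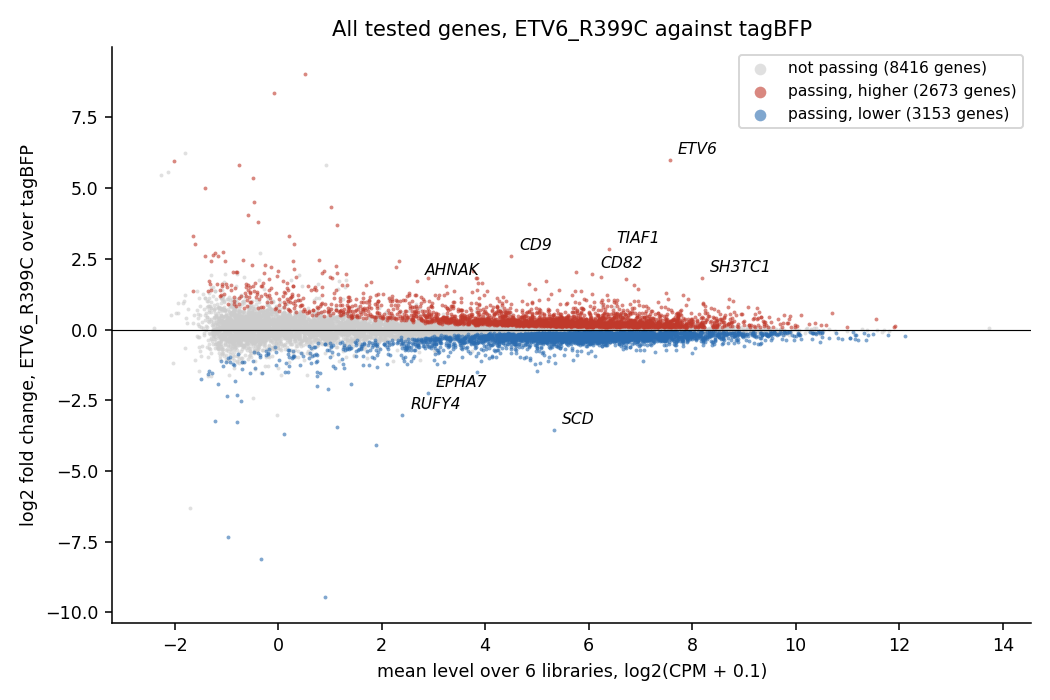
Each point is 1 of the 14242 tested genes, with its mean level over the 6 libraries as log2(CPM + 0.1) on the x axis and its log2 fold change of ETV6_R399C over tagBFP on the y axis. Red and blue points passed the test and lie close to 0 in most cases, while ETV6 is at 5.99 and SCD at -3.54, and points beyond about 7 in either direction are genes with 0 reads in a whole group.

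The largest rises and falls included membrane and lipid genes, and the start regions of 4 of them are shown because ETV6 is known to bind GGAA-cored sequence. The windows are the 250 bases before the RefSeq start (GRCh38.p14), 5′ to 3′ on the strand of the gene, with GGAA and its reverse complement TTCC in capitals. CD9 is at chr12:6199696-6199945 on the forward strand, CD82 at chr11:44565413-44565662 on the forward strand, SCD at chr10:100346983-100347232 on the forward strand and RUFY4 at chr2:218034684-218034933 on the forward strand.
CD9: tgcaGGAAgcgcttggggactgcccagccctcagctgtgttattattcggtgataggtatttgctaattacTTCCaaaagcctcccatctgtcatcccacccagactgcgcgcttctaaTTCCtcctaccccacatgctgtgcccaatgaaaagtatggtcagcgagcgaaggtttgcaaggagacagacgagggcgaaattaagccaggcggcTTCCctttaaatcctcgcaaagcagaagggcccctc
CD82: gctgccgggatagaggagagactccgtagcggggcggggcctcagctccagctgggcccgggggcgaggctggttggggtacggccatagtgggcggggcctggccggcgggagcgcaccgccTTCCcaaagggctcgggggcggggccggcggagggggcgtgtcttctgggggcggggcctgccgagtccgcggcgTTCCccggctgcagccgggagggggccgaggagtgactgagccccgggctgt
SCD: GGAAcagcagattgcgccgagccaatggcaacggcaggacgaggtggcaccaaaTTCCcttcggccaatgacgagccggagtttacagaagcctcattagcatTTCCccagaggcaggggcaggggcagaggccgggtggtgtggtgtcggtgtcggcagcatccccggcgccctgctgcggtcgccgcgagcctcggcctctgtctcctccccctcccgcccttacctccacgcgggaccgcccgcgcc
RUFY4: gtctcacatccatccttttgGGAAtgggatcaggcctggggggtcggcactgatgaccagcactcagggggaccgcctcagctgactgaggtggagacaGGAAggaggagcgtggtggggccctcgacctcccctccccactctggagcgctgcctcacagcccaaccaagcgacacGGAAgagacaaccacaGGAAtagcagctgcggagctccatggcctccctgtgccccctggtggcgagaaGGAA
The core occurs 4 times in the CD9 window, 2 times in that of CD82, 3 times in that of SCD and 5 times in that of RUFY4, counting both strands. It is common: 92.8% of all 27305 RefSeq windows of this length and 92.7% of the 10323 that could be matched to a tested gene hold it at least once. A match is a description of the letters and not a measured binding site, and the cells may use another start than the one listed.

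CD9, a tetraspanin that organises integrins and other receptors in the membrane, had 5.32, 6.77 and 7.13 CPM with tagBFP and 38.1, 39.2 and 38.7 with ETV6_R399C. Its mean with ETV6_WT was 27.1 CPM. All 3 ETV6_R399C libraries lay far above the highest control (log2 2.60 ± 0.08 SE, edgeR adjusted p = 2.88e-09). CD82, another tetraspanin, had 26.3, 26.0 and 29.9 CPM with tagBFP and 107.3, 103.1 and 109.2 with ETV6_R399C, a rise of 1.97 ± 0.05 (edgeR adjusted p = 4.08e-10). Tetraspanins did not move as a group: of 20 tested, CD9 and CD82 among them, 5 rose and 3 fell (median log2 change -0.01). Of all tested genes 18.8% were higher and 22.1% lower. TSPAN14 rose by 0.38 ± 0.03, CD81 rose by 0.33 ± 0.03, and TSPAN9 stood at -0.29 ± 0.04 (SE, edgeR adjusted p of at most 1.83e-04). TSPAN9 stood at -0.18 and did not pass with transcript lengths accounted for (edgeR adjusted p = 0.0916).

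SCD encodes the desaturase that makes monounsaturated fatty acids from saturated ones, and it had the largest fall that met the naming rule. It stood at 77.3, 73.1 and 71.9 CPM with tagBFP and at 6.45, 6.85 and 5.79 CPM with ETV6_R399C. This was a log2 change of -3.54 ± 0.06 (SE, edgeR adjusted p = 2.26e-11), with the groups far apart. The mean of SCD with ETV6_WT was 8.83 CPM. Of 21 tested genes of fatty acid synthesis and desaturation 6 rose and 3 fell, and 3 rose and 1 fell with transcript lengths accounted for. The shares over all tested genes were 18.8% higher and 22.1% lower. ELOVL6, which elongates saturated fatty acids, fell from 13.1 to 9.37 CPM and SCD5, the second human desaturase of this kind, did not pass (35.4 and 38.6 CPM, log2 0.12, edgeR adjusted p = 0.0886). SCD5 was looked up after the values of SCD had been seen. ACSS2, which makes acetyl-CoA from acetate, rose by 0.62 ± 0.09 and the desaturase gene FADS1 by 0.27 ± 0.04 (SE, edgeR adjusted p of at most 3.5e-04). With transcript lengths accounted for, ACSS2 and ELOVL6 no longer passed (log2 0.20 and -0.11).

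Other large rises were spread over several functions. BEST3, of the bestrophin family of chloride channels, stood at 21.2, 21.1 and 20.5 CPM with tagBFP and 83.7, 89.4 and 86.2 CPM with ETV6_R399C (log2 2.04 ± 0.04 SE). Its mean with ETV6_WT was 69.5 CPM. SH3TC1, whose product has an SH3 domain and tetratricopeptide repeats, stood at 127, 136 and 122 CPM and at 475, 463 and 432 CPM (log2 1.83 ± 0.04). TSC22D3, the glucocorticoid-induced leucine zipper gene, stood at 49.3, 46.9 and 46.6 CPM and at 172, 169 and 145 CPM (log2 1.77 ± 0.06). In each of these the groups were far apart, with edgeR adjusted p of at most 6.69e-09. RIMS3, whose protein acts at synaptic vesicle release sites, rose by 1.86 ± 0.08, the FOXO-regulated gene DEPP1 by 1.84 ± 0.10, TNFRSF18, the receptor GITR, by 1.83 ± 0.11, and the phospholipase gene PLD1 by 1.83 ± 0.16. The large scaffold gene AHNAK rose by 1.72 ± 0.16, TBC1D10C, a RAB GTPase-activating protein, by 1.70 ± 0.06 and HRK, a pro-apoptotic BH3-only gene, by 1.66 ± 0.12. AFF3, which belongs to a family of elongation factors, rose by 2.06 ± 0.28, with tagBFP libraries spread from 2.38 to 7.80 CPM. TIAF1 rose by 2.85 ± 0.05, lies within MYO18A on the same strand and so has uncertain reads, and DEPP1 and TBC1D10C overlap RASSF4 and PPP1CA on the other strand. With ETV6_WT the means were 30.4 CPM for AFF3 and 158 CPM for TIAF1.

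Among the large falls, RUFY4, a RUN and FYVE domain gene tied to autophagy, stood at 9.57, 9.38 and 8.73 CPM with tagBFP and 1.31, 1.25 and 0.865 CPM with ETV6_R399C (log2 -3.01 ± 0.18 SE, edgeR adjusted p = 2.89e-07). EPHA7, an ephrin receptor, stood at 11.2, 12.5 and 12.7 CPM and at 2.05, 2.80 and 2.85 CPM (log2 -2.25 ± 0.13, edgeR adjusted p = 2.58e-07). The highest ETV6_R399C library was under 3 CPM in both genes. With ETV6_WT the means were 1.55 CPM for RUFY4 and 4.64 CPM for EPHA7. Smaller falls were measured for IDUA, a lysosomal enzyme of glycosaminoglycan breakdown (-1.46 ± 0.07), BMP3, a secreted protein of the TGF-beta superfamily (-1.23 ± 0.12), GNG11, a G-protein gamma subunit (-1.22 ± 0.10), and ARHGAP24, a GTPase-activating protein of RAC (-1.16 ± 0.12). EME2, a subunit of a structure-specific endonuclease (-1.19 ± 0.05), METTL26 (-1.18 ± 0.06), CAPN15 (-1.11 ± 0.05), LRFN4 (-1.10 ± 0.06), ARMCX2 (-1.13 ± 0.19) and TIGD5 (-1.52 ± 0.09) also fell, and so did ADAT3 (-1.10 ± 0.22), which lies within SCAMP4 on the same strand. IDUA, EME2, ARHGAP24, LRFN4 and TIGD5 overlap a gene on the other strand.

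TRRAP, a scaffold of histone acetyltransferase complexes, met the naming rule but was the least stable fall. Its levels were 42.8, 54.1 and 33.4 CPM with tagBFP and 7.15, 18.7 and 30.4 CPM with ETV6_R399C (log2 -1.23 ± 0.39 SE, edgeR adjusted p = 0.026). It missed the threshold with DESeq2 (adjusted p = 0.0834), with transcript lengths accounted for (edgeR adjusted p = 0.0753), and without ETV6_R399C replicate 1 or 2 or tagBFP replicate 1 or 2 (edgeR adjusted p from 0.0533 to 0.0873).

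**Figure D2:**
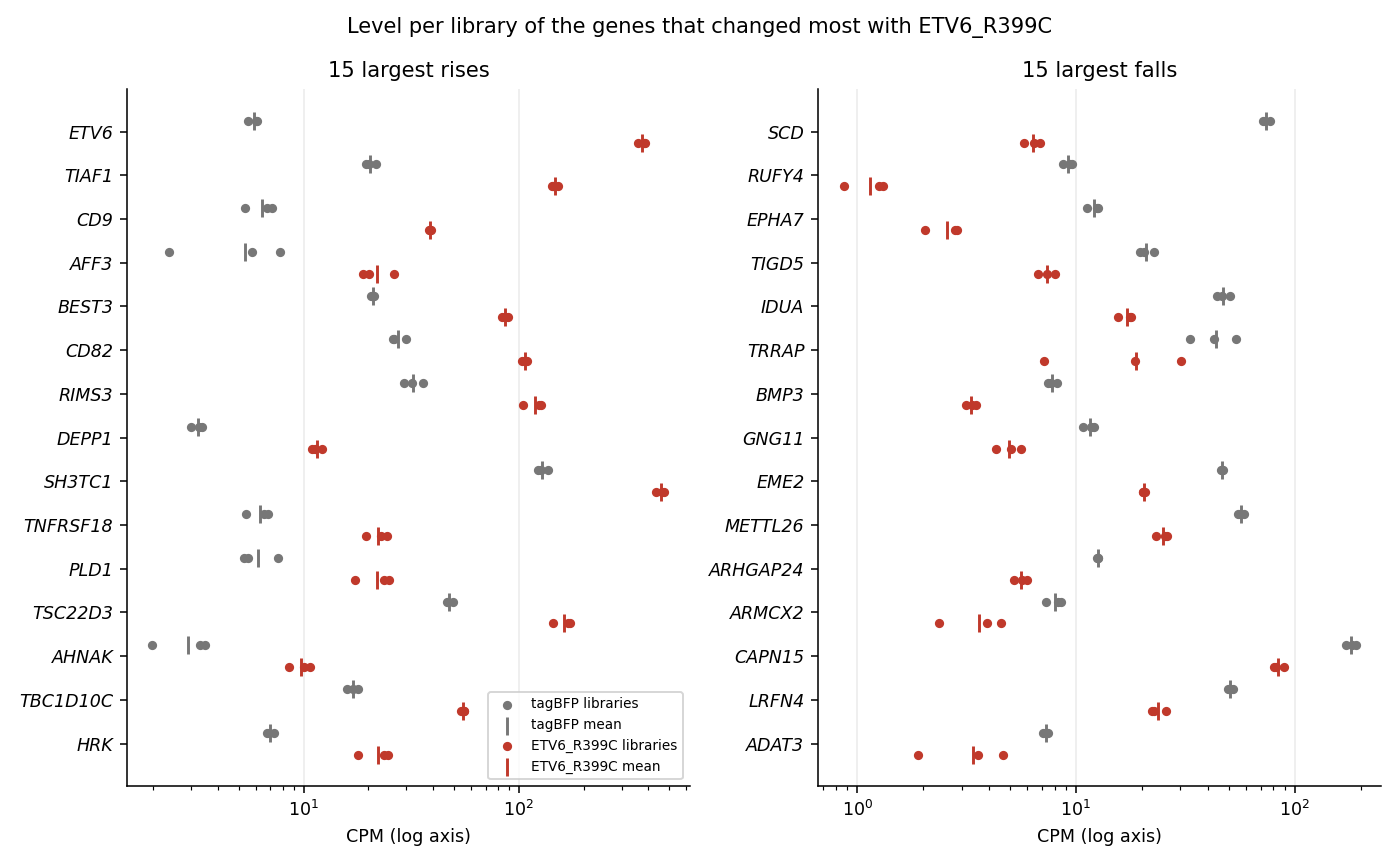
Dots are the CPM of single libraries on a log axis and bars the group means, tagBFP in grey and ETV6_R399C in red (n = 3 each), for the 15 largest rises and 15 largest falls that met the naming rule. The groups do not overlap for any gene shown. TRRAP and AFF3 have the widest spread within a group, and SCD and RUFY4 are far lower with ETV6_R399C.

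A few low genes had 0 reads in a whole group and are named after their values were seen. MSLNL had 59, 83 and 41 reads with ETV6_R399C and 0 in each tagBFP library, so it was at least 72.8-fold higher against a floor of 3 reads over the group. It had 71, 121 and 82 reads with ETV6_WT, and its difference between ETV6_R399C and ETV6_WT did not pass (log2 -0.55, edgeR adjusted p = 0.227). MEST, an imprinted gene, had 164, 34 and 100 reads with tagBFP and 0 with ETV6_R399C and with ETV6_WT, at least 83.3-fold lower. ADAM19, a membrane metalloprotease gene, had 48, 44 and 25 reads with tagBFP and 0 with ETV6_R399C, at least 32.7-fold lower, and 32, 26 and 37 reads with ETV6_WT. MEST overlaps COPG2 and ADAM19 overlaps CYFIP2, and the estimator divides reads among the transcripts they match, so these values are uncertain.

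B-lineage transcription factors rose together. Of 23 tested, 21 (91.3%) were higher and 0 lower, against 18.8% higher and 22.1% lower over all tested genes, and their median log2 change was 0.40, where that of all tested genes was 0.00. With transcript lengths accounted for 19 rose and 0 fell, and 21 rose and 0 fell when any 1 library was left out. At an unadjusted p under 0.05 and with DESeq2 0 were lower as well. With ETV6_WT the median change of this list over tagBFP was 0.33. IKZF2, the zinc finger protein Helios, stood at 63.5, 58.9 and 52.9 CPM with tagBFP and 172, 187 and 166 CPM with ETV6_R399C, a log2 change of 1.58 ± 0.06 (SE, edgeR adjusted p = 8.33e-09). BACH2, a repressor that holds B cells before plasma cell differentiation, stood at 125, 124 and 109 CPM and at 255, 258 and 244 CPM (1.08 ± 0.05, edgeR adjusted p = 3.47e-08). FOXO1, needed for early B-cell development and RAG expression, stood at 134, 129 and 125 CPM and at 222, 235 and 220.2 CPM (0.80 ± 0.04). POU2F2, the octamer-binding factor OCT2, rose by 1.39 ± 0.07 and XBP1, a factor of plasma cells and of the unfolded protein response, by 0.54 ± 0.02. RUNX1, which also collects reads from the fusion, rose by 0.40 ± 0.05 (edgeR adjusted p = 3.42e-05). ERG did not pass (302 ± 5.46 and 302 ± 3.53 CPM, SD, n = 3, log2 0.00, edgeR adjusted p = 0.981).

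Of 19 tested genes of the pre-B-cell receptor and its proximal kinases 12 were higher, 2 lower and 5 did not pass (median 0.17), against 18.8% higher and 22.1% lower over all genes. CD79B, a signalling chain of the receptor, stood at 497, 492 and 484 CPM with tagBFP and 775, 748 and 752 CPM with ETV6_R399C (log2 0.63 ± 0.03 SE, edgeR adjusted p = 1.49e-08). The phospholipase gene PLCG2 rose by 0.58 ± 0.04, the inhibitory receptor gene CD22 by 0.29 ± 0.02 and the lipid phosphatase gene INPP5D by 0.94 ± 0.11. Surface antigens used to type B-cell leukaemia were higher in 11 of 18 and lower in 2 (median 0.33, and 0.52 with ETV6_WT over tagBFP). MME, which encodes CD10, rose by 0.79 ± 0.03 from 398 to 688 CPM, CD38 by 0.60 ± 0.03, CD24 by 0.52 ± 0.03 and CD72 by 0.93 ± 0.06. The B-lymphoblast markers fixed to identify the cell type, several of them in these lists too, rose in 12 of 13 and fell in 0. In these bulk libraries more RNA per cell and a larger share of cells that express a gene cannot be told apart.

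V(D)J recombination and end joining did not move as a group, with 5 of 16 tested higher and 4 lower (median -0.01). The shares over all tested genes were 18.8% and 22.1%. LIG4, the ligase of non-homologous end joining, was the exception in size, at 65.2, 65.7 and 68.9 CPM with tagBFP and 179, 187 and 178 CPM with ETV6_R399C (log2 1.45 ± 0.04 SE, edgeR adjusted p = 6.13e-10). XRCC6, which encodes the Ku70 end-binding protein, fell by 0.29 ± 0.03, the recombinase gene RAG1 rose by 0.16 ± 0.03 and the damage kinase gene ATM by 0.27 ± 0.04. ATM no longer passed with transcript lengths accounted for (log2 0.14, edgeR adjusted p = 0.524).

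Integrins, homing receptors, semaphorins and plexins were more often higher, where 18.8% of all tested genes were higher and 22.1% lower. Integrins and homing receptors rose in 11 of 20 and fell in 2 (median 0.30), with ITGA5 at 0.44 ± 0.03, ITGA4 at 0.43 ± 0.03, the chemokine receptor gene CXCR4 at 0.29 ± 0.02 and ITGB7 at 0.81 ± 0.11. Semaphorins and their plexin receptors rose in 13 of 21 and fell in 3 (median 0.21). SEMA6A rose by 1.55 ± 0.13, PLXND1 by 0.70 ± 0.04, PLXNA1 by 0.55 ± 0.07 and SEMA4D by 0.46 ± 0.03 (SE, edgeR adjusted p of at most 6.12e-05). SEMA3A, a secreted repellent, fell from 2.39 to 0.758 CPM, a change that did not pass with transcript lengths accounted for (edgeR adjusted p = 0.891). Ephrins and their receptors were split, 3 of 13 higher and 3 lower, with EPHB2 rising by 0.63 ± 0.06 and its ligand gene EFNB1 falling by 0.44 ± 0.04 beside the fall of EPHA7.

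Several signalling lists were measured, to be read against 18.8% higher and 22.1% lower over all tested genes. Notch pathway genes rose in 9 of 15 and fell in 1 (median 0.36). The ligand gene DLL4 stood at 4.34, 5.91 and 4.98 CPM with tagBFP and 12.1, 11.6 and 12.0 CPM with ETV6_R399C (log2 1.23 ± 0.11 SE, edgeR adjusted p = 5.09e-06). DTX1, a ubiquitin ligase that modulates Notch, rose by 1.06 ± 0.03 and the coactivator gene MAML2 by 0.82 ± 0.10, while NRARP, a feedback inhibitor, fell by 0.75 ± 0.09. TGF-beta, BMP and ID genes rose in 9 of 17 and fell in 1, among them the inhibitor gene ID3 (0.34 ± 0.03), the receptor gene TGFBR2 (0.36 ± 0.04) and SMAD3 (0.41 ± 0.05). SMAD3 stood at 0.43 and just missed the threshold with transcript lengths accounted for (edgeR adjusted p = 0.0505). Regulators of RAP1 and RAS rose in 11 of 24 and fell in 3, led by RASAL1 (1.11 ± 0.06), RAP1GAP2 (0.51 ± 0.03) and the exchange factor gene RASGRP2 (0.38 ± 0.03). In the PI3K-AKT-mTOR list 7 of 25 rose and 1 fell, including PIK3CD, the leukocyte catalytic subunit (0.56 ± 0.02), and its regulatory subunit PIK3R1 (0.38 ± 0.03).

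Of 20 JAK-STAT genes 9 rose and 1 fell, with the kinase gene PIM1 at 0.40 ± 0.03, JAK1 at 0.40 ± 0.04 and STAT5A at 0.96 ± 0.16. Immediate-early genes rose in 10 of 21 and fell in 1, where 18.8% of all tested genes were higher and 22.1% lower. KLF2, a quiescence factor of lymphocytes, stood at 1.90, 1.54 and 1.65 CPM with tagBFP and 8.11, 8.20 and 7.09 CPM with ETV6_R399C (log2 2.19 ± 0.14 SE, edgeR adjusted p = 4.30e-07), KLF6 rose by 0.84 ± 0.04 and JUN by 0.94 ± 0.12. NF-kB subunits and targets rose in 10 of 18 and fell in 1, with the feedback inhibitor gene TNFAIP3 at 0.55 ± 0.03. Interferon-stimulated genes rose in 14 of 30 and fell in 4, and IFIT2 (0.88 ± 0.06) and IFITM1 (-0.99 ± 0.05) moved in opposite directions. WNT pathway genes were split, 3 of 20 higher and 4 lower, with LEF1 at 0.46 ± 0.02 and the antagonist gene NKD2 at -0.56 ± 0.04.

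Most nuclear-encoded genes of the respiratory chain, mitochondrial ribosome, proteasome and cytosolic chaperones fell, each by a small amount. Nuclear-encoded subunits of the respiratory chain were lower in 70 of 77 tested (90.9%) and higher in 0, with a median log2 change of -0.33 in edgeR's test, where 22.1% of all tested genes were lower and 18.8% higher. Mitochondrial ribosomal proteins were lower in 66 of 73 and higher in 0 (median -0.27), proteasome subunits lower in 29 of 30 and higher in 0 (median -0.27), and cytosolic chaperones lower in 16 of 19 and higher in 1 (median -0.37). For the lists with 0 higher, 0 were also higher at an unadjusted p under 0.05 and with DESeq2. CYCS, cytochrome c, stood at 310.3, 311 and 348 CPM with tagBFP and 199, 207 and 212 CPM with ETV6_R399C (log2 -0.65 ± 0.04 SE, edgeR adjusted p = 6.36e-07). The respiratory genes NDUFB10 (-0.41 ± 0.03), ATP5F1B (-0.37 ± 0.04) and ATP5MC3 (-0.55 ± 0.06) and the mitochondrial ribosomal genes MRPL3 (-0.41 ± 0.03), MRPL1 (-0.55 ± 0.05) and MRPL12 (-0.53 ± 0.05) also fell. The proteasome genes PSMD7 (-0.33 ± 0.03), PSMC5 (-0.26 ± 0.03) and PSMA3 (-0.46 ± 0.05) and the chaperonin genes CCT3 (-0.47 ± 0.03), CCT6A (-0.41 ± 0.03) and TCP1 (-0.39 ± 0.03) were lower, as was the HSP90 gene HSP90AB1 (-0.38 ± 0.03). Of the 13 mitochondrially encoded genes 0 passed in edgeR's test or with DESeq2 in either direction, 0 were higher and 1 lower at an unadjusted p under 0.05, and 2 passed lower without a filter on low counts. The difference from the nuclear-encoded list was not tested. Their median was -0.12, MT-CO3 stood at -0.17 ± 0.07 (edgeR adjusted p = 0.0986), and that median was 0.03 without tagBFP replicate 3.

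Transcripts of genes that build ribosomes were lower in part, where 22.1% of all tested genes were lower and 18.8% higher. In the list of MYC, ribosome biogenesis and polyamine genes 28 of 33 fell and 1 rose (median -0.39, and -0.29 with ETV6_WT over tagBFP). MYC, the transcription factor that drives this programme, stood at 486, 487 and 469.7 CPM with tagBFP and 347, 342 and 357 CPM with ETV6_R399C (log2 -0.46 ± 0.03 SE, edgeR adjusted p = 3.97e-07). The nucleolar genes DKC1 (-0.36 ± 0.02), NOLC1 (-0.46 ± 0.03) and PES1 (-0.49 ± 0.04) fell with it. Cytosolic ribosomal protein genes were lower in 46 of 75 and higher in 1, with a smaller median of -0.13, and this count ran from 29 lower without ETV6_R399C replicate 1 and 31 without ETV6_R399C replicate 2 to 52 without tagBFP replicate 1. RPL6 (-0.26 ± 0.03) and RPS2 (-0.18 ± 0.02) fell, and RPS26 (-0.66 ± 0.07) fell too but shares sequence with many pseudogenes. Cytosolic aminoacyl-tRNA synthetase genes were lower in 11 of 20 and higher in 3, with KARS (-0.29 ± 0.03), NARS (-0.23 ± 0.02) and FARSA (-0.36 ± 0.04) among the falls.

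Lists of sugar and nucleotide metabolism and redox genes had more falls than rises, where 22.1% of all tested genes were lower and 18.8% higher. Glycolysis and hypoxia-response genes fell in 17 of 30 and rose in 5 (median -0.28), with the enzymes PFKP (-0.53 ± 0.03), TPI1 (-0.55 ± 0.04) and PGK1 (-0.52 ± 0.04) lower and EGLN1, the oxygen-sensing hydroxylase that marks HIF for degradation, higher (0.48 ± 0.04). Of 25 genes of the pentose phosphate pathway and of nucleotide synthesis 19 fell and 0 rose (median -0.18), including the purine enzymes PAICS (-0.40 ± 0.04) and PPAT (-0.38 ± 0.04). With transcript lengths accounted for 10 of these 25 fell. NRF2 targets and redox genes fell in 10 of 17 and rose in 1, among them the peroxidase gene GPX1 (-0.37 ± 0.03), SOD1 (-0.42 ± 0.05) and the transferrin receptor gene TFRC (-0.40 ± 0.06). MLXIP, which encodes the glucose-sensing factor MondoA, stood at 272, 271 and 255 CPM with tagBFP and 575, 572 and 558 CPM with ETV6_R399C (log2 1.10 ± 0.03 SE, edgeR adjusted p = 1.38e-09), and in its list of 8 genes 5 rose and 1 fell. Its known targets TXNIP (0.73 ± 0.10) and ARRDC3 (0.39 ± 0.06) were among those that rose, and ARRDC3 stood at 0.11 and did not pass with transcript lengths accounted for (edgeR adjusted p = 0.665).

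Cell cycle genes were taken in 3 lists. Of 34 DNA replication genes 17 fell and 3 rose, with the helicase subunits GINS2 (-0.37 ± 0.05) and MCM4 (-0.22 ± 0.03) lower and the transcription factors E2F2 (0.57 ± 0.03) and E2F1 (0.32 ± 0.03) and the licensing factor CDT1 (0.29 ± 0.03) higher. Mitosis genes fell in 7 of 30 and rose in 4, and MKI67 rose by 0.25 ± 0.05. These shares are near those of all tested genes, 22.1% lower and 18.8% higher. The direction was not stable, with 5 higher and 1 lower without ETV6_R399C replicate 1, 1 and 5 without ETV6_R399C replicate 2, 1 and 6 without tagBFP replicate 2, and 2 and 2 with transcript lengths accounted for. Among 15 genes of G1 control 7 rose and 2 fell. The inhibitors CDKN1B (0.59 ± 0.03) and CDKN2D (0.48 ± 0.04) and the cyclin gene CCND3 (0.19 ± 0.02) rose, and CDK4 fell by 0.31 ± 0.03. BTG2, an antiproliferative p53 target, stood at 13.8, 14.2 and 14.1 CPM with tagBFP and 43.8, 43.5 and 41.7 CPM with ETV6_R399C (log2 1.61 ± 0.04 SE, edgeR adjusted p = 4.71e-10). The p53 target list as a whole was split, 8 of 18 higher and 6 lower, with TP53INP1 at 0.82 ± 0.10. In the BCL2 family 6 of 13 rose and 3 fell, and beside HRK the pro-apoptotic gene BBC3 (0.62 ± 0.06) and the anti-apoptotic gene BCL2 (0.27 ± 0.03) rose.

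**Figure D3:**
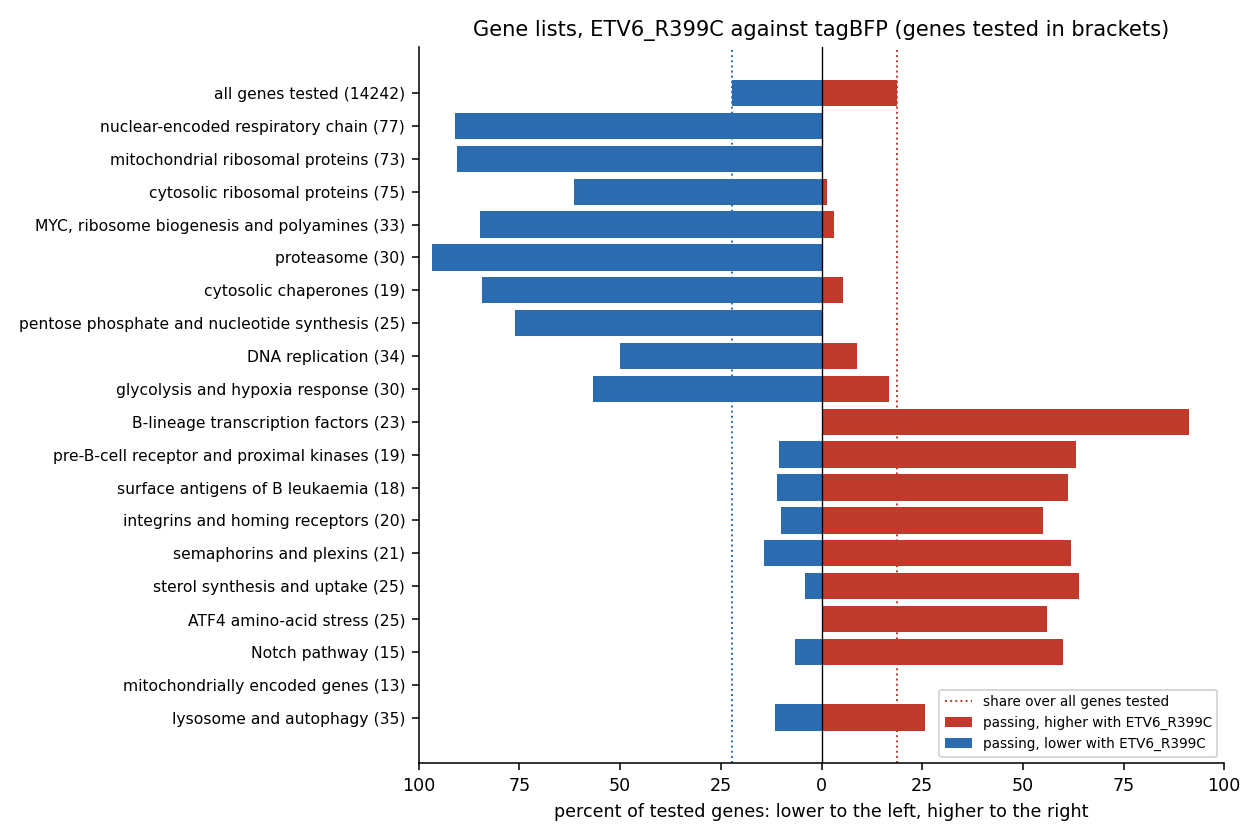
For each gene list the bar to the right gives the percent of tested genes that passed the test higher with ETV6_R399C and the bar to the left the percent that passed lower, with the number tested in brackets and the shares over all 14242 tested genes, 18.8% and 22.1%, as dotted lines. Lists of mitochondrial, ribosomal, proteasome and chaperone genes lie to the left and B-lineage, adhesion, sterol and Notch lists to the right.

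Sterol synthesis and uptake genes rose in 16 of 25 and fell in 1 (median 0.20), and over all tested genes 18.8% were higher and 22.1% lower. HMGCS1, an early enzyme of cholesterol synthesis, stood at 254, 261 and 270.5 CPM with tagBFP and 377, 372 and 353 CPM with ETV6_R399C (log2 0.49 ± 0.04 SE, edgeR adjusted p = 3.68e-06). FDFT1, squalene synthase, rose by 0.33 ± 0.03, INSIG1, the feedback regulator of sterol sensing, by 0.50 ± 0.05 and the cholesterol exporter gene of lysosomes, NPC1, by 0.43 ± 0.04. Of 25 genes of the ATF4 amino-acid stress response 14 rose and 0 fell (median 0.22), with 0 lower also at an unadjusted p under 0.05 and with DESeq2. TRIB3, a pseudokinase induced by that response, stood at 63.6, 60.3 and 52.8 CPM with tagBFP and 139, 134 and 87.4 CPM with ETV6_R399C (1.03 ± 0.14, edgeR adjusted p = 1.77e-04), with replicate 3 the lowest ETV6_R399C library. CHAC1, which degrades glutathione, rose by 0.52 ± 0.06 and DDIT4, an inhibitor of mTORC1, by 0.64 ± 0.09. The unfolded protein response list was split, 10 of 21 higher and 7 lower, with the sensor kinase gene EIF2AK3 (0.71 ± 0.02), EDEM1 (0.77 ± 0.05) and SYVN1 (0.55 ± 0.04) of ER-associated degradation higher and the disulfide isomerase gene PDIA6 lower (-0.22 ± 0.03).

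Partners and relatives of ETV6 were measured too, to be read against 18.8% higher and 22.1% lower over all tested genes. Of 15 partners and corepressors 9 rose and 3 fell (median 0.14), with the corepressor gene TBL1XR1 at 0.35 ± 0.04, HDAC9 at 0.53 ± 0.07, FLI1, an ETS factor that binds ETV6, at 0.17 ± 0.02, HDAC3 at -0.23 ± 0.04 and L3MBTL2 at -0.21 ± 0.03. With transcript lengths accounted for HDAC3 and L3MBTL2 both stood at -0.18 and did not pass (edgeR adjusted p = 0.0964 and 0.0843). Of 21 tested ETS-family genes 10 rose and 1 fell (median 0.14), including SPIB (0.70 ± 0.04), ETS1 (0.68 ± 0.07), ELK3 (0.44 ± 0.03), SPI1 (0.38 ± 0.03) and ELF4 (0.36 ± 0.04). Genes near GGAA-repeat enhancers in Ewing sarcoma, where an ETS fusion activates such repeats, fell in 5 of 10 and rose in 1 (median -0.18). KIT, one of them and a receptor of progenitor cells, fell from 3.03 to 1.49 CPM (log2 -1.03 ± 0.17 SE, edgeR adjusted p = 4.81e-04). Among 10 stem and progenitor regulators 7 rose and 3 fell, with MYB (0.43 ± 0.02) and HHEX (0.65 ± 0.07) higher. Genes known to be high in leukaemia with ETV6::RUNX1 were split, 7 of 20 higher and 6 lower.

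Other cell types' genes stayed low in level apart from MPO. Of 3 tested myeloid markers 2 passed higher and 0 lower, against 18.8% higher and 22.1% lower over all tested genes. MPO, the myeloperoxidase of myeloid granules, stood at 39.7, 38.1 and 37.7 CPM with tagBFP and 71.8, 74.4 and 76.0 CPM with ETV6_R399C (log2 0.94 ± 0.04 SE, edgeR adjusted p = 1.03e-08). RAC2, a subunit of the phagocyte oxidase that lymphocytes also express, rose by 0.42 ± 0.03. CIITA, the master regulator of MHC class II genes, rose by 0.49 ± 0.03 and CD74, the invariant chain, by 0.20 ± 0.03, in a list where 3 of 8 rose and 2 fell.

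The direction of change differed with transcript length. Protein-coding genes were put in 5 bins of near-equal size by the length of their most abundant annotated transcript. In the bin of the longest transcripts, from 4447 bases up, 34.3% were higher and 11.9% lower with ETV6_R399C, in the bin of 857 to 1843 bases 11.9% were higher and 34.8% lower, and in the shortest bin, 160 to 855 bases, 13.8% were higher and 25.9% lower, so the shares did not run evenly with length. Median transcript lengths were 675 bases for the respiratory chain and 1024 for mitochondrial ribosomal proteins, and 3477 for the B-lineage factors. Other falling lists had medians of 2264 bases for the chaperones and 2029 for the list of MYC and ribosome biogenesis, and the ATF4 list, of which 14 rose and 0 fell, had 2069. Set against the median of genes in the same length bin, the list medians were -0.28 for the respiratory chain, -0.22 for mitochondrial ribosomal proteins, -0.22 for the proteasome and 0.45 for the B-lineage factors. With transcript lengths accounted for, 62 of the 77 respiratory genes, 52 of the 73 mitochondrial ribosomal genes and 27 of the 30 proteasome genes fell and 0 of any of the 3 lists rose. This adjustment compares a gene with itself between libraries, by a transcript length that is corrected for the fragment length of each library. It can take up a difference between long and short genes that comes from fragment length. Whether other differences between long and short genes remain was not tested. The same adjustment left 31 of the 75 cytosolic ribosomal protein genes lower and 0 higher. It also moved the counts of these lists by over 1.5 times, to 5 higher and 1 lower of the ETV6 partners, 9 and 1 of the semaphorins and plexins, 6 and 5 of the unfolded protein response, 7 and 0 of the NF-kB list, 9 and 0 of the RAP1 and RAS regulators, 3 and 0 of the MondoA list, 4 and 3 of the p53 targets, 2 and 3 of the V(D)J list, 4 and 2 of the stem cell regulators, 1 and 2 of the Ewing sarcoma list and 5 and 2 of the ETV6::RUNX1 list, and the lists to which this happened also include those of fatty acid synthesis, nucleotide synthesis and mitosis given above. The share of genes that passed also grew with level, from 9.0% higher and 4.4% lower in the lowest bin to 27.3% higher and 38.9% lower in the highest.

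**Figure D4:**
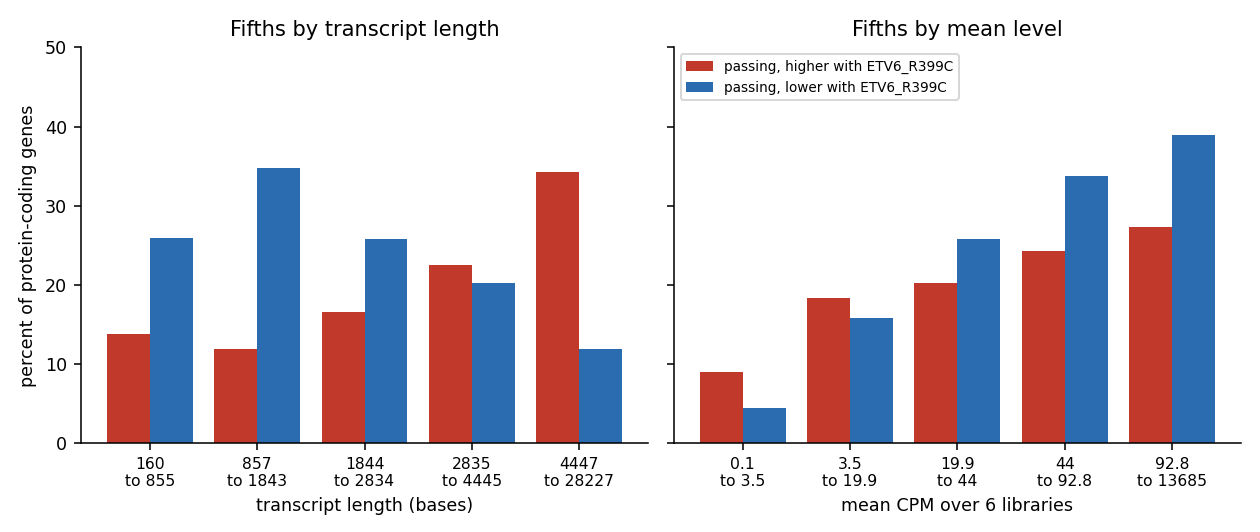
Bars give the percent of protein-coding genes that passed higher (red) or lower (blue) with ETV6_R399C, in 5 bins by the length of the most abundant transcript in bases (left) and by mean CPM over the 6 libraries (right). On the left the red share passes the blue one in the bins above 2835 bases, and on the right both shares grow with level.

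Start regions also differed between the lists in a longer ETS-type sequence. CCGGAA, or TTCCGG on the other strand, which includes the GGAA core, is in 14.8% of all RefSeq windows of 250 bases before the start and in 24.9% of those of tested genes. It is in 32.2% of the 2516 matched genes that fell, 19.4% of the 2056 that rose and 23.6% of the 5751 that did not pass. It is in 10.2% of the 137 matched genes that rose at least 2-fold and 4.17% of the 48 that fell at least 2-fold. Among the lists it is in 26 of 63 respiratory chain windows (41.3%) and 30 of 66 of mitochondrial ribosomal proteins (45.5%). Proteasome windows hold it in 10 of 25 (40.0%) and those of cytosolic ribosomal proteins in 27 of 59 (45.8%). It is in 4 of 21 windows of B-lineage factors (19.0%) and 5 of 21 of sterol genes (23.8%), lists that rose. The windows of 1 member each of 3 falling lists show it in capitals. Each was picked by the lowest p among the eligible members that hold the sequence. Members on a certain chromosome were not eligible, so a list may hold such a member with a lower p. ATP5PB, a subunit of ATP synthase, is at chr1:111449214-111449463 on the forward strand, MRPL3 at chr3:131502972-131503221 on the reverse strand and PSMC5 at chr17:63827181-63827430 on the forward strand (GRCh38.p14).
ATP5PB: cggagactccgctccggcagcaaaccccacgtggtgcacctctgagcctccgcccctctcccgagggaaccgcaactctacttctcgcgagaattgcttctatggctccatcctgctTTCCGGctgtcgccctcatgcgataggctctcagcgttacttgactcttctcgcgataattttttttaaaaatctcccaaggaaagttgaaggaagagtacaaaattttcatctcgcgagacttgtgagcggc
MRPL3: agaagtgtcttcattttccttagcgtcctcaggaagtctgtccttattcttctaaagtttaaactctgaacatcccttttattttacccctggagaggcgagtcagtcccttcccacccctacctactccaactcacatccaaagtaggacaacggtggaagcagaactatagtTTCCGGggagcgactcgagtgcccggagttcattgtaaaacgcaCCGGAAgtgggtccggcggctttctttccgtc
PSMC5: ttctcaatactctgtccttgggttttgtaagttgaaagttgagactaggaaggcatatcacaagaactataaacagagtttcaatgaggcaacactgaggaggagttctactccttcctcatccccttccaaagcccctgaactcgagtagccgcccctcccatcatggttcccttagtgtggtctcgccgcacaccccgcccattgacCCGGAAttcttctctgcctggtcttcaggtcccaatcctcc
ATP5PB was picked by its p among the eligible genes of its list. It stood at 238 CPM with tagBFP and 175 with ETV6_R399C (log2 -0.44 ± 0.05 SE, edgeR adjusted p = 2.12e-05). MRPL3 and PSMC5 are among the falls given above. The sequence is on the reverse strand of ATP5PB, on both strands of MRPL3 and on the forward strand of PSMC5. ATP5PB and PSMC5 overlap a gene on the other strand. These are shares of letters in windows, given with no test, and these sets differ in base composition. GC was 56.9% in all RefSeq windows and 63.9% in those of tested genes. It was 58.3% in cytosolic ribosomal protein windows, 65.4% in those of genes that rose and 67.8% in those of sterol genes.

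Genes with large rises lay near each other more often than genes at large. Of the 222 genes at least 2-fold higher, 37 (16.7%) had another within 100000 bases, where 4.96% of all tested genes had one. Of the 79 at least 2-fold lower, 4 (5.06%) had another, where 2.25% of all had one. On chromosome 12, 28 of 769 tested genes, the induced ETV6 among them, rose at least 2-fold and 0 fell. On chromosome 16 the counts were 8 and 9 of 718. Over all tested genes 1.56% rose and 0.555% fell at least 2-fold. The other chromosomes were counted too and are not listed. Overlapping genes that share reads are included in these counts, and the differences were not tested.

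The second comparison set ETV6_R399C against ETV6_WT, to ask where the substituted form differed from the normal one. A change against tagBFP alone does not show that it is particular to ETV6_R399C. ETV6 itself was lower with ETV6_R399C than with ETV6_WT, as given above, and protein levels were not analysed here. Of 14242 genes 3044 (21.4%) passed, 1323 (9.29%) higher and 1721 (12.1%) lower with ETV6_R399C, and in 38.4% the groups did not overlap. At least 2-fold higher were 135 (0.948%) and at least 2-fold lower 68 (0.477%). The split between higher and lower was not stable, since 57.5% of calls were higher without ETV6_WT replicate 1 and 43.5% with all libraries, and the count was 2008 without ETV6_R399C replicate 1, 2009 without ETV6_WT replicate 2 and 2031 without ETV6_R399C replicate 2. With transcript lengths accounted for 1234 genes passed.

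Of the 8 genes most above ETV6_WT by the naming rule, 4 did not pass against tagBFP. CLIC5, an intracellular chloride channel gene, stood at 43.2, 43.6 and 42.3 CPM with ETV6_R399C, at 46.2, 41.1 and 40.8 CPM with tagBFP and at 6.49, 5.55 and 6.35 CPM with ETV6_WT. It was higher than with ETV6_WT (log2 2.82 ± 0.07 SE, edgeR adjusted p = 1.88e-09) and did not pass against tagBFP (log2 0.01, edgeR adjusted p = 0.975). CYBB, the catalytic subunit of the phagocyte oxidase, stood at 16.5, 17.7 and 18.0 CPM with ETV6_R399C, 17.3, 16.5 and 16.8 with tagBFP and 3.15, 3.16 and 2.73 with ETV6_WT (difference from ETV6_WT 2.52 ± 0.08, log2 0.04 against tagBFP with edgeR adjusted p = 0.635). The lectin gene SIGLEC15 was likewise higher than with ETV6_WT (2.34 ± 0.12) and did not pass against tagBFP (edgeR adjusted p = 0.0968). The transporter gene SLC51A (2.22 ± 0.08) and BIRC7, an inhibitor of apoptosis (1.82 ± 0.05), were higher than with ETV6_WT and stood at -0.23 ± 0.07 and -0.29 ± 0.04 against tagBFP, a difference that SLC51A lost with DESeq2 (adjusted p = 0.106) and under 3 other settings. A p that misses the threshold does not show that ETV6_R399C and tagBFP left these genes at the same level.

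CREB5, a transcription factor of the CREB and ATF family, showed another pattern. It stood at 9.39, 9.60 and 6.05 CPM with ETV6_R399C, 1.33, 1.61 and 1.73 with tagBFP and 1.41, 2.31 and 1.83 with ETV6_WT. It was higher than in both other groups, by 2.43 ± 0.22 over tagBFP (edgeR adjusted p = 7.21e-06) and 2.16 ± 0.22 over ETV6_WT (edgeR adjusted p = 4.58e-05). DLL4 was higher than with ETV6_WT by 1.62 ± 0.11 (edgeR adjusted p = 2.43e-06), with 4.04, 3.82 and 3.75 CPM in the ETV6_WT libraries.

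Of the 8 genes named as most below ETV6_WT, 5 did not pass against tagBFP. CCND2, cyclin D2, stood at 4.29, 3.81 and 3.85 CPM with ETV6_R399C, 3.61, 2.90 and 2.91 with tagBFP and 12.9, 14.4 and 12.9 with ETV6_WT (difference from ETV6_WT -1.75 ± 0.11 SE, edgeR adjusted p = 1.16e-06). Its difference from tagBFP (0.34 ± 0.12, edgeR adjusted p = 0.0392) missed the threshold with DESeq2 (adjusted p = 0.112), and without any single ETV6_R399C library, tagBFP replicate 2 or tagBFP replicate 3 (edgeR adjusted p from 0.0565 to 0.127). TBX21, the T-box factor T-bet, stood at 3.43 ± 0.341 CPM with ETV6_R399C, 3.81 ± 0.459 with tagBFP and 11.6 ± 1.43 with ETV6_WT (SD, n = 3, difference from ETV6_WT -1.76 ± 0.13 SE, edgeR adjusted p = 3.41e-06). CPZ (-1.79 ± 0.14), the RAP1 exchange factor gene RAPGEF3 (-1.56 ± 0.16), SERHL2 (-1.49 ± 0.09), CTHRC1 (-1.43 ± 0.14) and SH3BP5 (-1.43 ± 0.21) were lower too. SH3BP5 stood at -0.70 and did not pass with transcript lengths accounted for (edgeR adjusted p = 0.057), and CPZ shares its strand with GPR78. FSCN1, the actin-bundling protein fascin, was lower than in both other groups, at 16.2, 18.9 and 16.3 CPM with ETV6_R399C, 35.8, 31.7 and 32.6 with tagBFP and 48.6, 50.4 and 44.6 with ETV6_WT (difference from ETV6_WT -1.49 ± 0.07 SE, edgeR adjusted p = 1.73e-07).

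**Figure D5:**
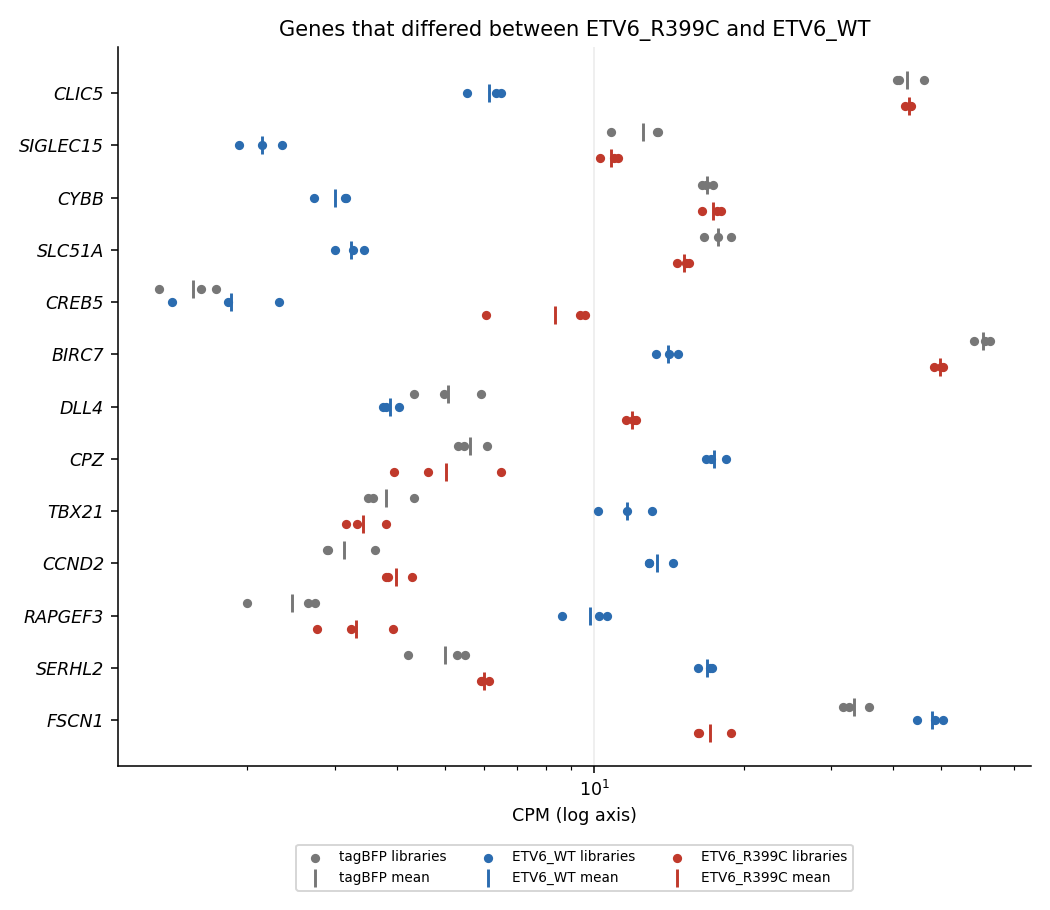
Dots are the CPM of single libraries on a log axis and bars the group means for tagBFP (grey), ETV6_WT (blue) and ETV6_R399C (red), n = 3 each. For CLIC5, CYBB and TBX21 the red points lie among or beside the grey ones and apart from the blue ones, while CREB5 and DLL4 are higher and FSCN1 lower in red than in both other groups.

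Some lists leaned the same way against ETV6_WT as against tagBFP, and others did not. B-lineage factors were higher than with ETV6_WT in 11 of 23 and lower in 4, and surface antigens higher in 2 of 18 and lower in 8. The MYC and ribosome biogenesis list was lower than with ETV6_WT in 14 of 33 and the proteasome list in 9 of 30, with 0 higher in both. Over tagBFP, ETV6_WT had moved these lists the same way as ETV6_R399C, by the medians given above. Sterol genes were higher with ETV6_R399C than with ETV6_WT in 21 of 25 and lower in 0 in edgeR's test, and ATF4 genes in 21 of 25 and 0. For both, 0 were lower also at an unadjusted p under 0.05, and over all tested genes 9.29% were higher and 12.1% lower. Over tagBFP the list medians were -0.14 for sterol and -0.30 for ATF4 genes with ETV6_WT, and 0.20 and 0.22 with ETV6_R399C. HMGCS1 stood at 250.3, 225 and 237 CPM with ETV6_WT, and CHAC1 was higher with ETV6_R399C than with ETV6_WT by 1.21 ± 0.06 (SE, edgeR adjusted p = 3.45e-07). Aminoacyl-tRNA synthetase genes, 11 of which fell against tagBFP, were higher than with ETV6_WT in 10 of 20 and lower in 1. Cytosolic ribosomal protein genes were lower than with ETV6_WT in 41 of 75 and higher in 0, interferon-stimulated genes lower in 15 of 30 and higher in 1, and DNA replication genes lower in 15 of 34 and higher in 1. The respiratory chain list was lower than with ETV6_WT in 9 of 77 and higher in 0, close to the share of all genes that were lower. Both comparisons share the ETV6_R399C libraries, so their counts are not independent.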

How the data were processed

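RNA of 3 ETV6_R399C, 3 tagBFP and 3 ETV6_WT libraries was prepared with a directional RNA library kit, per the labels' protocols. The authors' deposited tables give, per the file headers, an estimated count (NumReads) and TPM for each of 167268 transcripts. These were made with Salmon 0.11.3 and build hg38, per the submitters' processing notes, and the strand setting is not given in the sources used here. Estimated counts were summed per gene with GENCODE 29, which named 90.3% of transcripts, and rounded to whole numbers. Reads of unnamed transcripts, 7.27% to 7.56% of a library, were left out. Library totals are given in the report and set the counting error of low genes.

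Counts were tested with edgeR 4.0.16 in R 4.3.3 (filterByExpr, TMM scaling, quasi-likelihood test, Benjamini-Hochberg adjusted p of 0.05) over all 14242 genes and 9 libraries without covariates. Printed CPM are scaled by the TMM factors, errors of log2 fold changes are the size of the change divided by the square root of F, and the authors' TPM served for ETV6 and for transcript lengths. The biological coefficient of variation was 4.95%. Counts of 14242 genes were simulated for the comparison with tagBFP in 5 draws, with a small part of the genes changed in each. Of 1.2-fold changes 39.2% were recovered, of 1.5-fold 62.8%, of 2-fold 81.6% and of 4-fold 93.6%, and 4.8% of calls fell on unchanged genes. The part changed was far smaller than the 40.9% of genes that passed in the data, so these percentages hold for the simulated setting only.

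The named genes are the 15 largest rises and falls against tagBFP and the 8 largest rises and falls against ETV6_WT among protein-coding genes that passed, averaged at least 5 CPM and did not overlap between groups, up to 5 members of each of 60 gene lists with the smallest p, and ETV6, RUNX1 and ERG. A few genes that met this rule are not reported here. The members and lists were chosen with earlier results of these data known. Alternatives were DESeq2 1.42.0 and its size factors, no filter, a fit of 6 libraries, an offset for transcript length, a replicate block and leaving out each library.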

Additional observations from a re-analysis of the deposited data

Results flagged for a closer look

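These 6 genes moved in opposite directions with the variant and the wild-type protein relative to tagBFP and differed most between ETV6_R399C and ETV6_WT, by a direct test of that difference over 3 libraries each (edgeR adjusted p of at most 6.14e-06). They were found by this pattern, so their values are a description, and the comparisons share libraries. ST6GALNAC3, a sialyltransferase gene, stood at 9.24 CPM with ETV6_R399C, 5.38 with tagBFP and 2.30 with ETV6_WT, a log2 difference of 2.01 ± 0.16 (SE) between ETV6_R399C and ETV6_WT. Its rise over tagBFP was 0.57 and did not pass with transcript lengths accounted for (edgeR adjusted p = 0.0658). AK7, an adenylate kinase gene, stood at 46.7, 41.6 and 14.1 CPM in the same order (1.72 ± 0.06), but its rise over tagBFP (0.16 ± 0.05, edgeR adjusted p = 0.0248) was lost without ETV6_R399C replicate 2 (edgeR adjusted p = 0.11), tagBFP replicate 1 or tagBFP replicate 2. LMTK3, a kinase gene, stood at 91.2, 68.1 and 28.6 CPM (1.67 ± 0.04). The Notch ligand gene DLL4 stood at 11.9, 5.08 and 3.87 CPM (1.62 ± 0.11). EHD2, a gene of membrane trafficking, stood at 10.6, 7.73 and 3.57 CPM (1.56 ± 0.11), and its difference from tagBFP was 0.45, and 0.54 without passing once transcript lengths were accounted for (edgeR adjusted p = 0.352). FSCN1 ran the other way, at 17.1, 33.4 and 47.9 CPM (-1.49 ± 0.07).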

How the results depend on the processing

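Of 207 genes named against tagBFP, 0 reversed under any of 12 alternatives, and 2432 of the 2484 values stayed on their side of the threshold. In 43 values over 20 genes the call was lost, 18 of them with transcript lengths accounted for, and in 9 a call was gained. The number of genes passing against tagBFP was 5826 and fell to 3427 with the length offset, where 3267 were shared with the unadjusted fit and all 3267 kept their direction. It ran from 4865 to 5594 when single libraries were left out, 284 to 334 of them changed at least 2-fold, and DESeq2 called 4900. Against ETV6_WT the number was 3044, 1234 with the length offset and 2008 to 3110 when single libraries were left out, with 195 to 223 at least 2-fold. The lowest were 2008 without ETV6_R399C replicate 1 and 2009 without ETV6_WT replicate 2. The share of these calls that were higher was 43.5%, 53.2% with 6 libraries and 40.2% to 57.5% when single libraries were left out. The cause was not tested. With the replicate number as a block, 5656 genes passed against tagBFP and 2973 against ETV6_WT. The numbers were not taken as pairing. Deviations of same-numbered ETV6_R399C and tagBFP libraries correlated at 0.138, 0.02 and 0.269, and those of differently numbered ones at -0.218 to 0.134. These values do not exclude a pairing. Precision is limited for low genes and small changes. The simulated recovery grew with the size of the change and was not split by level.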

Other observations

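Further groups were measured between ETV6_R399C and tagBFP that belong to none of the descriptions above. Their counts are to be read against 18.8% higher and 22.1% lower over all tested genes. Of 20 genes of Polycomb complexes and DNA methylation 9 were higher and 2 lower, and 3 and 0 with transcript lengths accounted for. CBX7, a chromodomain subunit of a Polycomb repressive complex, was higher by 0.57 ± 0.06 (SE, edgeR adjusted p = 1.72e-05). Histone deacetylases and sirtuins were split, 7 of 17 higher and 5 lower, with HDAC7 at 0.33 ± 0.02. Genes of the glucocorticoid response rose in 5 of 9 and fell in 1, among them the phosphatase gene DUSP1 at 0.37 ± 0.02, beside TSC22D3, and 3 rose and 0 fell with transcript lengths accounted for. ERK feedback genes fell in 4 of 11 and rose in 1, and SPRY2, an inhibitor of receptor signalling, stood at -0.30 ± 0.05 and DUSP6, an ERK phosphatase, at 0.18 ± 0.02. That list had 1 higher and 2 lower without ETV6_R399C replicate 1 or replicate 2, with DESeq2 and with transcript lengths accounted for.

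Of 8 LXR targets 3 rose and 0 fell, with the cholesterol exporter ABCA1 at 0.36 ± 0.07 and MYLIP, which degrades the LDL receptor, at 0.21 ± 0.05 (SE, edgeR adjusted p of at most 0.0044). Of 11 MHC class I genes 5 rose and 0 fell, with the peptidase gene ERAP1 at 0.19 ± 0.02, and 3 rose without tagBFP replicate 2, in a fit of 6 libraries or with transcript lengths accounted for. For both lists 0 were lower in edgeR's test at an unadjusted p under 0.05 and with DESeq2 as well. Of 35 genes of lysosomes and autophagy 9 were higher and 4 lower, 6 and 2 without ETV6_R399C replicate 2, and 3 and 2 with transcript lengths accounted for, and MAP1LC3B stood at 0.26 ± 0.04. Of 19 genes of fatty acid oxidation and storage 4 were higher and 7 lower, but 6 and 5 with RLE size factors, 5 and 4 with DESeq2 or without ETV6_R399C replicate 1, and 2 and 2 with transcript lengths accounted for, with the electron transfer gene ETFB at -0.21 ± 0.04. Metallothionein and zinc transport genes were split, 3 of 9 higher and 3 lower, with the zinc importer gene SLC39A14 at -0.39 ± 0.04 and MT2A at 0.38 ± 0.09, and 2 were higher and 1 lower with transcript lengths accounted for. Without ETV6_R399C replicate 1 this list had 3 higher and 1 lower. Of 10 genes of the phagocyte oxidase and granules 4 rose and 2 fell. Over all tested genes 18.8% were higher and 22.1% lower.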
